A study of Homo sapiens with 6 samples.

Results

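The heat shock chaperones examined here were 10 genes picked by name: HSPA1A, HSPA1B, HSPA5, HSPA8, HSP90AA1, HSP90AB1, HSPH1, DNAJB1, HSPD1 and HSPE1. Each symbol matched 1 row among the 57820 genes of the deposited tables, and all 10 were among the 14044 genes that passed the filter on low counts (at least 1 CPM in a library, CPM being normalised counts scaled to one library size). Total RNA was sequenced from SEM cells, a human B-cell acute lymphoblastic leukemia line, in 3 CTCF-WT and 3 CTCF-dRBR libraries. In both groups the endogenous CTCF carried a miniAID-mClover3 tag, OsTIR1 was expressed constitutively, and 5-Ph-IAA was given for 24 h to degrade the tagged protein. Doxycycline (1 µg/mL) was present for the last 18 h, after 6 h of 5-Ph-IAA alone, and induced HA-tagged CTCF from a transduced transgene, wild type in one line and lacking the RNA-binding region (dRBR) in the other. The labels name the TRE3G-HA-CTCF-dRBR transgene for the mutant libraries but no transgene for the CTCF-WT libraries, whose HA-CTCF is known from the study's methods. Each group is 1 derived cell line, the labels do not say whether replicates came from separate cultures, and p-values therefore measure only the spread between these libraries. The comparison asks whether expression differs between cells that rely on CTCF with and without its RNA-binding region.

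Heat shock chaperones bind unfolded protein. HSP70 proteins hold short hydrophobic stretches in an ATP-driven cycle that J-domain proteins such as DNAJB1 start and nucleotide exchange factors such as HSPH1 end, and clients can pass on to HSP90. The cytosolic pair HSPA1A and HSPA1B is the classical stress-inducible HSP70, HSPA8 its constitutive relative, HSPA5 (BiP) the HSP70 of the endoplasmic reticulum, and HSPD1 with HSPE1 the chaperonin of the mitochondrial matrix and its lid. The inducible members are known targets of the transcription factor HSF1, which binds heat shock elements, while HSPA5 is a target of the unfolded protein response.

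Total expected counts ran from 51732177 to 53166735 per CTCF-WT library and from 30034505 to 50457168 per CTCF-dRBR library, the lowest being CTCF-dRBR replicate 1. The libraries also differed in base composition, with that library at one end. Across 13654 genes, the Spearman correlation between exonic GC content and log2 CPM, centred for each gene on its mean over the libraries, was −0.780 there, −0.417 and 0.504 in the other CTCF-dRBR libraries, and 0.709, 0.674 and 0.339 in the CTCF-WT libraries. Of the 7 B-lymphoblast markers, 6 exceeded 1 CPM in at least 1 library, with DNTT below it, and their summed level was 813 to 983 CPM in CTCF-WT against 546 to 923 CPM in CTCF-dRBR. Summed T cell markers stayed at or below 0.602 CPM, erythroid markers at or below 0.1003 CPM and myeloid markers between 7.76 and 13.2 CPM, with CD3D and HBA1 at 0 in every library. CTCF itself had 209.9, 211 and 249 CPM in CTCF-WT against 273, 264 and 252 CPM in CTCF-dRBR, but gene-level reads do not separate the endogenous from the transgenic transcript, so this level does not check the labels.

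The promoters of the members are shown first because they hold the heat shock elements this gene class is known for, so the counts of that element describe genes chosen from such a class and are no independent finding. They were read from RefSeq promoters (GRCh38.p14, a different build from that of the counts), which hold 16 start sites for the 10 genes, and the 250 bases before each start were searched. The motifs were searched on both strands. A heat shock element pair (GAANNTTC or TTCNNGAA) stood before 7 of the 16 starts, 1 in each of 7 members, against 11.6% of all 35116 promoters. The 3-unit element (a pair with a further GAA or TTC after it, at the same spacing of 2 bases, which contains the pair) stood before 4 of 16, 1 each in HSP90AA1, HSP90AB1, HSPA8 and HSPD1, against 0.441% of all promoters. TATAAA was found before HSPA1A and HSPA1B only, against 10.7%, and CCAAT before 8 of 16 starts in 6 members, against 32.0%. The endoplasmic reticulum stress element (CCAAT and CCACG with 9 bases between them, added to the search later) was found in HSPA5 alone, against 0.0740%. HSPE1 and HSPH1 had no heat shock element in this window, which says only that these letters are not in it. The 120 bases before the start of the 4 HSP70 genes read as follows, with heat shock elements, TATAAA and the endoplasmic reticulum stress element in capitals.
HSPA1A: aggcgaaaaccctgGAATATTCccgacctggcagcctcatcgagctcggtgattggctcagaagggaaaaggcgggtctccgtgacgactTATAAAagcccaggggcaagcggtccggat
HSPA1B: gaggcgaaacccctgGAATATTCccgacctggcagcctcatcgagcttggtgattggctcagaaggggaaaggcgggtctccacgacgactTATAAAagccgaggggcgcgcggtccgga
HSPA8: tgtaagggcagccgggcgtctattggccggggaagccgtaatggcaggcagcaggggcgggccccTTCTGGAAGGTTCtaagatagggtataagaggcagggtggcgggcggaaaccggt
HSPA5: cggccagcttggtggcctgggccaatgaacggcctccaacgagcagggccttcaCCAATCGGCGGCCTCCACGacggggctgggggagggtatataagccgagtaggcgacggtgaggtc

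These stretches lie at chr6:31815423-31815542 (plus strand), chr6:31827618-31827737 (plus strand), chr11:123062137-123062256 (minus strand) and chr9:125241344-125241463 (minus strand) of GRCh38.p14. Over all 250 upstream bases the HSPA1A and HSPA1B promoters were identical in 235 of 251 aligned columns (93.6%). HSPA8 carries a 3-unit element and HSPA5 none of the heat shock forms searched. Shorter windows around 1 heat shock element of 4 other members, in capitals, are given for comparison with those of the HSP70 genes.
HSP90AA1: gagggttcTTCCGGAAGGTTCgggaggct
HSP90AB1: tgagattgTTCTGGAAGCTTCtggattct
HSPD1: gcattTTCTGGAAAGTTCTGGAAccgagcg
DNAJB1: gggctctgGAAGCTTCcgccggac

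They lie at chr14:102087112-102087140 (minus strand), chr6:44247823-44247851 (plus strand), chr2:197500061-197500090 (minus strand) and chr19:14518429-14518452 (minus strand). HSP90AA1, HSP90AB1 and HSPD1 show 3 or more units and DNAJB1 a single pair. In these 3 genes and in DNAJB1 the element stands before 1 of 2 or 3 annotated starts, and gene-level counts do not tell which start was used.

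Levels per transcript length spanned a wide range, and HSPA8 was by far the most abundant member. In TPM (transcript abundance, counts divided by effective length and scaled to one total per library), HSPA8 ran from 855 to 2802, with a mean of 1554 ± 697 (SD, n = 6), and ranked 23 to 63 among 20345 protein-coding genes. HSPD1 followed with a mean of 597 TPM, then HSP90AB1 with 385, HSPE1 with 216, HSP90AA1 with 148 and HSPH1 with 114. DNAJB1 had 33.8 TPM, HSPA1B 26.1 and HSPA1A 18.2, and HSPA5 had the lowest mean of the 10 at 8.69 TPM, from 5.88 to 11.9. The order held in 6 of 6 libraries for every pair of neighbours except 3. HSP90AA1 exceeded HSPH1 in 5 of 6 libraries, HSPA1B exceeded HSPA1A in 5 of 6, and DNAJB1 exceeded HSPA1B in 3 of 6, so the last pair did not differ beyond its spread. None of the 10 TPM differences between groups passed an exact permutation test (two-sided, unadjusted p from 0.2 to 0.8), where 3 libraries against 3 cannot give less than 0.1.

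No member passed the threshold between CTCF-dRBR and CTCF-WT. On the count scale 8 of the 10 had lower fitted values in CTCF-dRBR, but 4 of the 10 on log2(TPM + 1). In the limma-voom fit over all genes 0 of 10 members had an adjusted p under 0.05, where the share called among all 14044 genes was also 0%. At an unadjusted p under 0.05, 5 members were lower and 0 higher, against 12.8% and 12.6% of all genes. EdgeR's quasi-likelihood test also called 0 members and 0 genes. In 5 members, HSPA1B, HSPA5, HSP90AB1, DNAJB1 and HSPE1, every CTCF-dRBR library had a lower CPM than every CTCF-WT library, against 17.5% of all genes, and in 0 members was the order the opposite, against 20% of all genes. The median log2 fold change of the members was −0.42 and that of all genes −0.0076, with 8 of 10 members and 50.6% of genes below 0. With log2(TPM + 1) values the median over all genes moved to 0.41, and the members' median was 0.26, which is below the shift of all genes but above 0. In bulk RNA fewer cells of a type and less RNA per cell cannot be told apart.

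**Figure D1:**
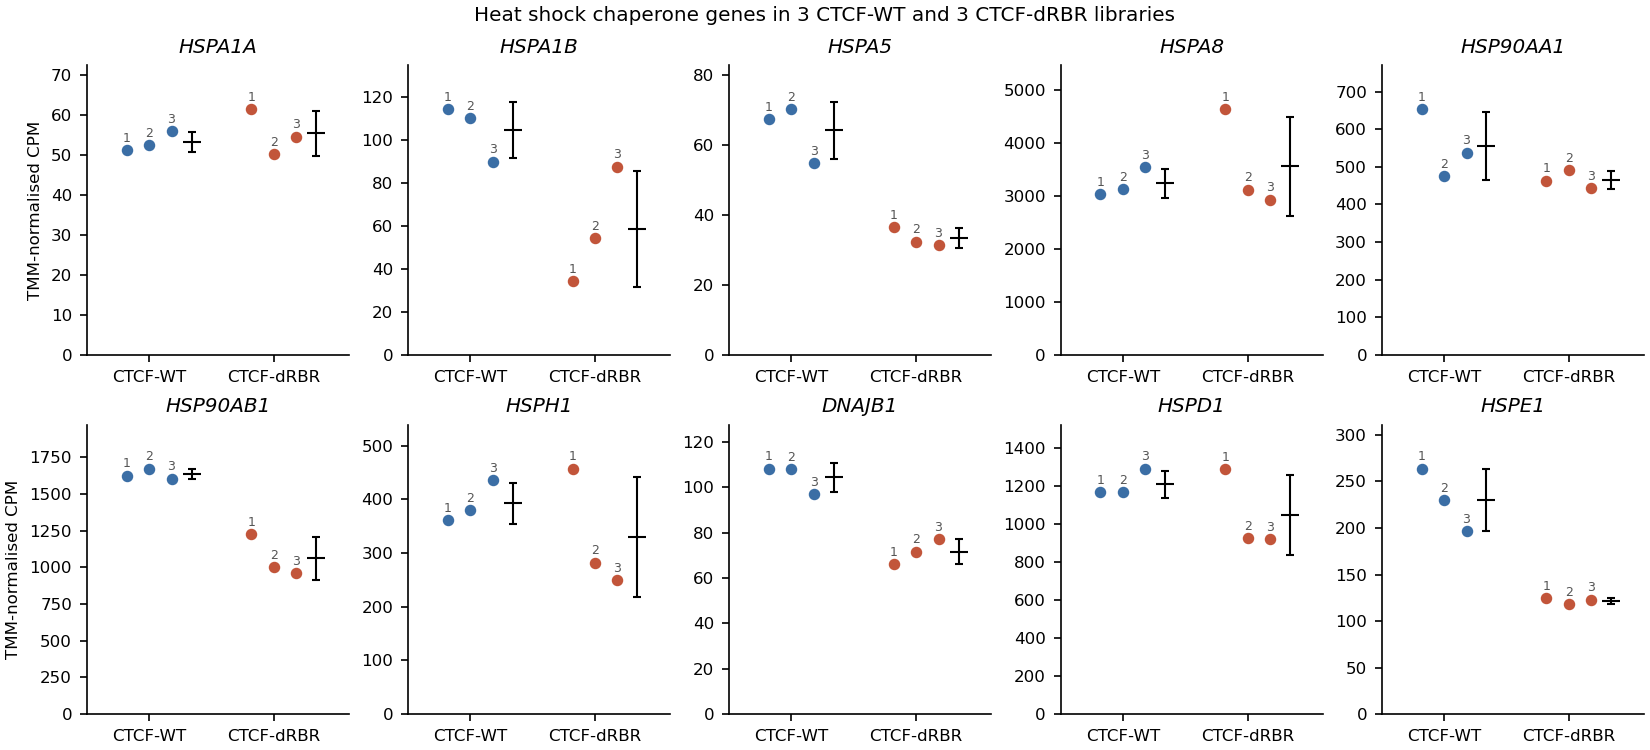
TMM-normalised CPM (vertical axis, linear from 0, a separate scale for each gene) of the 10 chaperone genes in the 3 CTCF-WT (blue) and 3 CTCF-dRBR (red) libraries, with replicate numbers beside the points and the mean ± SD in black. On this scale the groups do not overlap in HSPA1B, HSPA5, HSP90AB1, DNAJB1 and HSPE1, and CTCF-dRBR replicate 1 is the highest library for HSPA8 (4627 CPM) and HSPH1 (457 CPM).

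Leaving out CTCF-dRBR replicate 1 changed the calls. In the limma-voom fit of the other 5 libraries, 4 members passed the threshold, all lower in CTCF-dRBR, where 2.37% of 13731 genes were called lower. HSP90AB1 had a log2 fold change of −0.74 (adjusted p 0.0214), HSPA5 −1.01 (0.0306), HSPE1 −0.92 (0.0333) and DNAJB1 −0.49 (0.0436). All 10 members were then below 0, with a median of −0.53. The same 4 were called lower by DESeq2 on 6 libraries (6.14% of genes called lower) and by edgeR without that library (2.56%). With the GC trend of each library removed by loess, 5 members were called lower, HSP90AB1, HSPA5, HSPD1, HSPE1 and HSPH1 (5.24%), and with that correction and without CTCF-dRBR replicate 1, 7 were, those 5 with DNAJB1 and HSPA1B (13.3%). Library weights gave the same 7 members (35.8%). In none of these fits was a member called higher. The part of base composition and of this library in the differences was not tested.

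**Figure D2:**
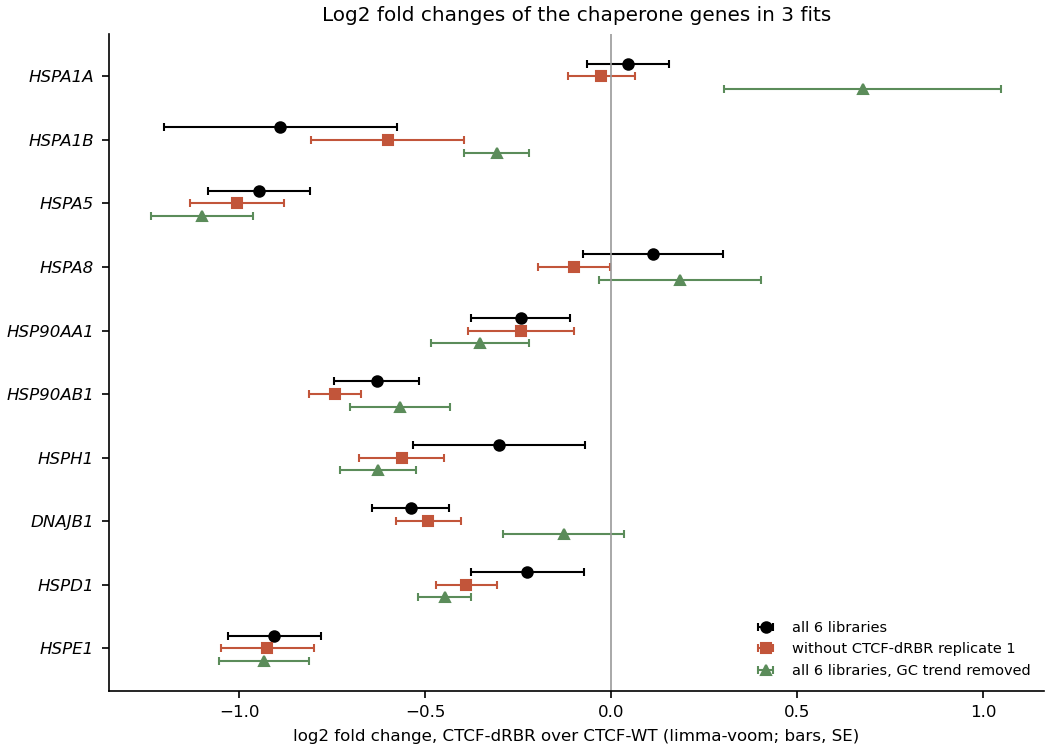
Log2 fold change of CTCF-dRBR over CTCF-WT (horizontal axis, bars are SE) for each member from limma-voom on all 6 libraries (black circles), without CTCF-dRBR replicate 1 (red squares) and on all 6 libraries after removal of the GC trend (green triangles). HSPA1B, HSPA5, HSP90AA1, HSP90AB1, HSPH1, HSPD1 and HSPE1 stay left of 0 by more than their SE in all 3. HSPA1A moves from 0.04 to 0.68 and DNAJB1 from −0.54 to −0.13 when the GC trend is removed.

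HSPA5 (ENSG00000044574.7, chr9:127997132-128003661 of GRCh37, minus strand), the endoplasmic reticulum HSP70, had the most negative fitted value of the members on all 6 libraries. HSPE1 was close to it at −0.91. Without CTCF-WT replicate 2 their order was reversed, at −0.88 for HSPA5 and −0.90 for HSPE1. The CPM of HSPA5 was 67.4, 70.1 and 54.8 in CTCF-WT and 36.5, 32.4 and 31.3 in CTCF-dRBR. The mutant libraries lay below every CTCF-WT library, and CTCF-dRBR replicate 1 was the highest of its group. The log2 fold change was −0.95 (SE 0.14), 51.9% of the CTCF-WT level, with an adjusted p of 0.0959 by limma-voom over all genes. The value stayed below 0 in each of 21 alternative fits, from −1.10 to −0.34. These values rest on 1091 to 3598 reads per library.

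The stress-inducible pair had unequal values. HSPA1A (ENSG00000204389.8, chr6:31783320-31785723, plus strand) had 51.2, 52.4 and 55.9 CPM in CTCF-WT against 61.3, 50.1 and 54.6 CPM in CTCF-dRBR, so the groups overlapped, with a log2 fold change of 0.04 (SE 0.11, limma-voom adjusted p 0.785). HSPA1B (ENSG00000204388.5, chr6:31795515-31798031, plus strand) had 114.2, 110.2 and 90.0 CPM in CTCF-WT against 34.3, 54.2 and 87.6 CPM in CTCF-dRBR. CTCF-dRBR replicate 3 lay just below the lowest CTCF-WT library and replicate 1 far below it. Its log2 fold change was −0.89 (SE 0.31, limma-voom adjusted p 0.169), and −0.60 without CTCF-dRBR replicate 1.

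The 2 genes encode nearly the same protein and share reads, which the quantification divides between them, so either value alone is uncertain. HSPA1B took 69.1, 67.8 and 61.7% of the pair's counts in CTCF-WT, a mean of 66.2%, against 35.9, 51.9 and 61.6%, a mean of 49.8%, in CTCF-dRBR. The exact permutation p of that difference was 0.1, the smallest that 3 against 3 can give. Summed, the pair had 165, 163 and 146 CPM in CTCF-WT against 95.7, 104 and 142 CPM in CTCF-dRBR. The 3 mutant libraries were lower, but the highest of them was close to the lowest CTCF-WT library, and the log2 fold change of the sum was −0.48 (limma-voom adjusted p 0.162). The exonic GC content of HSPA1A (59.8%) and HSPA1B (58.8%) was the highest among the members, and removing the GC trend moved their values to 0.68 and −0.31.

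HSPA8 (ENSG00000109971.9, chr11:122928197-122933938, minus strand), the constitutive HSC70, had 3028, 3126 and 3542 CPM in CTCF-WT against 4627, 3117 and 2923 CPM in CTCF-dRBR. CTCF-dRBR replicate 1 was the highest and replicate 3 the lowest of the 6 libraries. The log2 fold change was 0.11 (SE 0.19, limma-voom adjusted p 0.683) and −0.10 without CTCF-dRBR replicate 1. HSPA8 also hosts the small nucleolar RNAs SNORD14C, SNORD14D and SNORD14E in its introns. HSPA8 made up a larger part of the members' TPM in CTCF-dRBR, 52.8 ± 1.78% against 45.7 ± 1.02% (SD, n = 3), with no overlap between groups (exact permutation p 0.1). The 9 members without HSPA8 summed to 4345 ± 72.7 CPM in CTCF-WT against 3244 ± 448 CPM in CTCF-dRBR (exact permutation p 0.1). Without CTCF-dRBR replicate 1 the CTCF-dRBR mean was 2986 CPM. With HSPA8 included, the sum was 7577 ± 284 CPM in CTCF-WT against 6800 ± 1380 CPM in CTCF-dRBR (exact permutation p 0.4). The groups then overlapped, with CTCF-dRBR replicate 1 the highest of the 6 libraries (8386 CPM), and the CTCF-dRBR mean was 6007 CPM without it. The members' share of all counts was 0.739% in CTCF-WT against 0.694% in CTCF-dRBR (exact permutation p 0.6).

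The 2 partners that drive the HSP70 cycle differed in their spread. DNAJB1 (ENSG00000132002.3, chr19:14625581-14671203, minus strand, overlapping TECR on the opposite strand), the J-domain protein that delivers clients to HSP70, had 108, 108 and 96.8 CPM in CTCF-WT against 66.0, 71.5 and 77.2 CPM in CTCF-dRBR. The groups were separate, with a log2 fold change of −0.54 (SE 0.10, limma-voom adjusted p 0.102), of −0.13 with the GC trend removed (its GC content is 55.7%) and of 0.22 on log2(TPM + 1), below the median of all genes there. HSPH1 (ENSG00000120694.15, chr13:31709110-31736525, minus strand), an HSP110 that exchanges the nucleotide of HSP70, had 362, 380 and 436 CPM in CTCF-WT against 457, 282 and 250 CPM in CTCF-dRBR. CTCF-dRBR replicate 1 was the highest and the other mutant libraries the lowest of all 6, and HSPH1 had the lowest GC content of the members (38.1%). Its log2 fold change was −0.30 (SE 0.23, limma-voom adjusted p 0.379), −0.56 without CTCF-dRBR replicate 1 (adjusted p 0.0504) and −0.63 with the GC trend removed (adjusted p 0.0254).

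The cytosolic HSP90 genes had unequal values too. HSP90AB1 (ENSG00000096384.15, chr6:44213903-44221625, plus strand), the constitutive form, had 1623, 1671 and 1604 CPM in CTCF-WT against 1226, 998 and 958 CPM in CTCF-dRBR. Every mutant library was below every CTCF-WT library, with a log2 fold change of −0.63 (SE 0.12, limma-voom adjusted p 0.0970), or 64.6% of the CTCF-WT level. HSP90AA1 (ENSG00000080824.14, chr14:102547079-102606036, minus strand, overlapping WDR20), the inducible form, had 653, 476 and 538 CPM in CTCF-WT against 463, 491 and 444 CPM in CTCF-dRBR. CTCF-dRBR replicate 2 lay above CTCF-WT replicate 2, so the groups overlapped, and the log2 fold change was −0.24 (SE 0.13, limma-voom adjusted p 0.259). HSP90AB1 remained below 0 in 21 of 21 alternative fits and HSP90AA1 in 19, the exceptions being the fits on log2(TPM + 1) and log2(TPM + 0.1).

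HSPD1 and HSPE1, the mitochondrial HSP60 and HSP10, have head-to-head starts on chromosome 2. The first RefSeq starts of the 2 genes are 105 bases apart on opposite strands. In the GRCh37 coordinates given here, the span of HSPD1 contains that of HSPE1. HSPE1 (ENSG00000115541.6, chr2:198364864-198368173 of GRCh37, plus strand) had 264, 230 and 197 CPM in CTCF-WT against 125, 118 and 123 CPM in CTCF-dRBR. The mutant libraries lay close together and all below CTCF-WT, with a log2 fold change of −0.91 (SE 0.13, limma-voom adjusted p 0.0959), or 53.4% of the CTCF-WT level. HSPD1 (ENSG00000144381.12, chr2:198351308-198381461, minus strand) had 1166, 1168 and 1291 CPM in CTCF-WT against 1289, 927 and 921 CPM in CTCF-dRBR. Its groups overlapped, and CTCF-dRBR replicate 1 was near the highest CTCF-WT library. The log2 fold change was −0.23 (SE 0.15, limma-voom adjusted p 0.329), −0.39 without that library (adjusted p 0.0559) and −0.45 with the GC trend removed (adjusted p 0.0248).

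Ratios within a library do not depend on the scaling between libraries, and 6 of them were compared. Ratios of TPM do depend on the effective lengths estimated in each library. HSPD1 over HSPE1, in TPM, was 1.45, 1.80 and 2.47 in CTCF-WT and 5.19, 2.95 and 2.88 in CTCF-dRBR. All mutant libraries were above all CTCF-WT libraries. The difference was 0.93 in log2 (exact permutation p 0.1, two-sided and unadjusted), and 0.65 without CTCF-dRBR replicate 1. On counts the limma-voom log2 fold changes of HSPD1 and HSPE1 were −0.23 and −0.91, closer together than the TPM ratio. With the GC trend removed they were −0.45 and −0.93. Of single genes, 20% had every CTCF-dRBR library above every CTCF-WT library in CPM and 17.5% every one below. No such share was computed for ratios. HSPA5 over HSPA8 was 0.00901, 0.00929 and 0.00693 in CTCF-WT and 0.00317, 0.00470 and 0.00481 in CTCF-dRBR, a log2 difference of −1.01 (exact permutation p 0.1). The endoplasmic reticulum HSP70 was lower relative to the cytosolic one in every mutant library. DNAJB1 over DNAJA1, both J-domain genes, differed by −0.24 in log2 without overlap (exact permutation p 0.1). The ratios were not corrected for GC content, which was 55.7% in DNAJB1 and 41.3% in DNAJA1. With the GC trend removed the log2 fold change was −0.13 for DNAJB1 and −0.30 for DNAJA1, so DNAJA1 then had the more negative value.

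The other ratios overlapped between groups. HSP90AA1 over HSP90AB1 was 0.409, 0.285 and 0.327 in CTCF-WT and 0.403, 0.468 and 0.453 in CTCF-dRBR, a log2 difference of 0.39 (exact permutation p 0.2). HSPA1A plus HSPA1B over HSPA8 differed by −0.50 in log2 (exact permutation p 0.3), and by −0.21 without CTCF-dRBR replicate 1. HSPH1 over HSPA4, the second HSP110 gene of the cytosol, differed by −0.18 in log2 (exact permutation p 0.4), and by −0.36 without CTCF-dRBR replicate 1. No p under 0.1 can be reached in this design, so none of the 6 could pass 0.05.

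**Figure D3:**
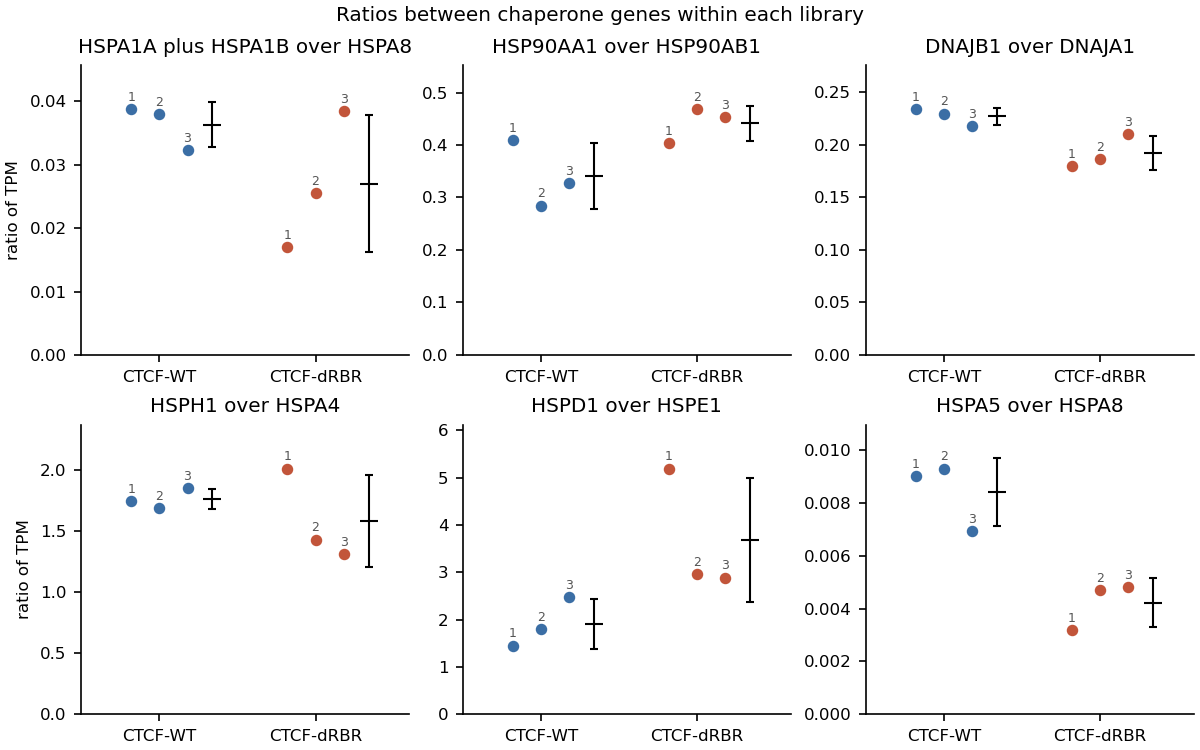
Ratio of TPM within each library (vertical axes, linear from 0) for 6 pairs of chaperone genes in CTCF-WT (blue) and CTCF-dRBR (red), with replicate numbers and the mean ± SD in black. HSPD1 over HSPE1 is higher in all 3 CTCF-dRBR libraries (2.88 to 5.19 against 1.45 to 2.47), and HSPA5 over HSPA8 is lower in all 3 (0.00317 to 0.00481 against 0.00693 to 0.00929).

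The rest of the chaperone network was described with 10 lists holding 98 genes, 85 of which were tested. By limma-voom 0 of the 85 passed the threshold, 23 were lower and 6 higher at an unadjusted p under 0.05, against 12.8% and 12.6% of all genes, and the median log2 fold change was −0.09. Of the HSP90 co-chaperones, 9 of 10 were below 0, against 50.6% of all genes. In 7 of them every CTCF-dRBR library was below all CTCF-WT libraries, against 17.5% of all genes. Their median was −0.37 (0.29 on log2(TPM + 1), where all genes had 0.41). They included AHSA1, which stimulates the HSP90 ATPase, with 215, 210 and 204 CPM in CTCF-WT against 163, 149 and 166 CPM in CTCF-dRBR, and STIP1, which links HSP70 to HSP90, at −0.35 (SE 0.09). SUGT1 was the exception at 0.05. With the GC trend removed STIP1 was at −0.0046, AHSA1 at −0.35 and SUGT1 at −0.29.

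Mitochondrial chaperones and proteases had 7 of 8 genes below 0, against 50.6% of all genes, and a median of −0.39. On log2(TPM + 1) that median was 0.42, where all genes had 0.41, so on that scale the list was not below all genes. TRAP1, the mitochondrial HSP90, had 110, 103 and 109 CPM in CTCF-WT against 47.8, 67.1 and 80.9 CPM in CTCF-dRBR, without overlap. DNAJA3, the J-domain partner of mitochondrial HSP70, was at −0.43 (SE 0.11), and CLPX, an unfoldase, was the exception at 0.10 (−0.087 without CTCF-dRBR replicate 1). With the GC trend removed the list's median was −0.24, TRAP1 moved from −0.72 to −0.25 and DNAJA3 was at −0.23. The cytosolic chaperonin and prefoldin list had a median of −0.03, with CCT7 at −0.54 and CCT3 at −0.38 on one side and VBP1 at 0.27 and PFDN4 at 0.55 on the other. That median was −0.20 with the GC trend removed, where VBP1 was at −0.070 and PFDN4 at 0.25, and −0.19 without CTCF-dRBR replicate 1, where they were at 0.11 and 0.15.

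The endoplasmic reticulum list showed both directions beside HSPA5. Its 16 genes had a median of 0.04, with 8 below 0 and 8 above. XBP1, a transcription factor of the unfolded protein response, had 268, 269 and 301 CPM in CTCF-WT against 401, 414 and 395 CPM in CTCF-dRBR. Each mutant library was above each CTCF-WT library, with a log2 fold change of 0.53 (SE 0.09, limma-voom adjusted p 0.0959). DNAJC3, a co-chaperone of HSPA5, was at 0.34, while CALR, a lectin chaperone, was at −0.40 and DDIT3 (CHOP) at −0.43. With the GC trend removed CALR was at 0.024 and DNAJC3 at 0.061, while XBP1 was at 0.45 and DDIT3 at −0.39. The list's median was 0.067 in that fit and −0.030 without CTCF-dRBR replicate 1.

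J-domain co-chaperones had a median of 0.12, with 9 of 20 below 0. DNAJB14 was at 0.52 and DNAJB5 at −0.47. With the GC trend removed they were at 0.081 and −0.095, and the list's median was −0.083, as it was −0.035 without CTCF-dRBR replicate 1 and −0.018 with library weights. The remaining HSP70 and HSP110 genes had a median of 0.03, with HSPA13 at 0.50, HSPA2 at 0.09, HYOU1 at −0.42 and HSPA1L at −0.43, and HSP90B1, the HSP90 of the endoplasmic reticulum, was at 0.35. That list's median was −0.13 with the GC trend removed and −0.14 without CTCF-dRBR replicate 1, and GC removal left HSPA13 at 0.13, HSPA2 at −0.070, HYOU1 at 0.00071 and HSP90B1 at 0.077. Nucleotide exchange and BAG factors had a median of −0.10, with HSPBP1 at −1.53, GRPEL1 at −0.29, BAG4 at 0.30 and BAG2 at 0.09. With the GC trend removed that median was −0.25, HSPBP1 was at −0.71, BAG4 at 0.021 and BAG2 at −0.25. Only 2 of 9 small heat shock protein genes were tested. HSPB1 had 112, 88.4 and 75.7 CPM in CTCF-WT against 17.3, 40.0 and 59.9 CPM in CTCF-dRBR, without overlap, at −1.31, and HSPB7 was at −0.56. Without CTCF-dRBR replicate 1 they were at −0.89 and −0.23, and with the GC trend removed at −0.52 and 0.079.

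The heat shock factors had fitted values of both signs. HSF1 had 48.6, 45.0 and 36.6 CPM in CTCF-WT against 14.0, 34.6 and 48.7 CPM in CTCF-dRBR, with the mutant libraries spread beyond both ends of CTCF-WT, at a log2 fold change of −0.50 (SE 0.41). HSF1 was at −0.072 without CTCF-dRBR replicate 1 and at 0.35 with the GC trend removed. HSF2 had 38.8, 43.3 and 52.5 CPM in CTCF-WT against 77.4, 61.3 and 49.5 CPM in CTCF-dRBR, at 0.45 (SE 0.20), and HSF4 was at −1.09 (SE 0.56). GC removal left HSF2 at 0.19 and HSF4 at −0.39, and moved the list's median from −0.26 to 0.031. None of the 4 genes of this list, with HSBP1, passed an unadjusted p under 0.05. Without CTCF-dRBR replicate 1, limma-voom called 7 of the 85 network genes. TRAP1, AHSA1, HSPBP1, CCT7, CHORDC1 and PFDN2 were lower, against 2.37% of all genes, and XBP1 was higher, against 1.52%. CHORDC1 and PFDN2 are named because of these calls. CHORDC1 had 140, 143 and 149 CPM in CTCF-WT against 184, 111 and 99.8 CPM in CTCF-dRBR, so the groups overlapped and CTCF-dRBR replicate 1 was the highest. On all 6 libraries its log2 fold change was −0.20 (limma-voom adjusted p 0.540).

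**Figure D4:**
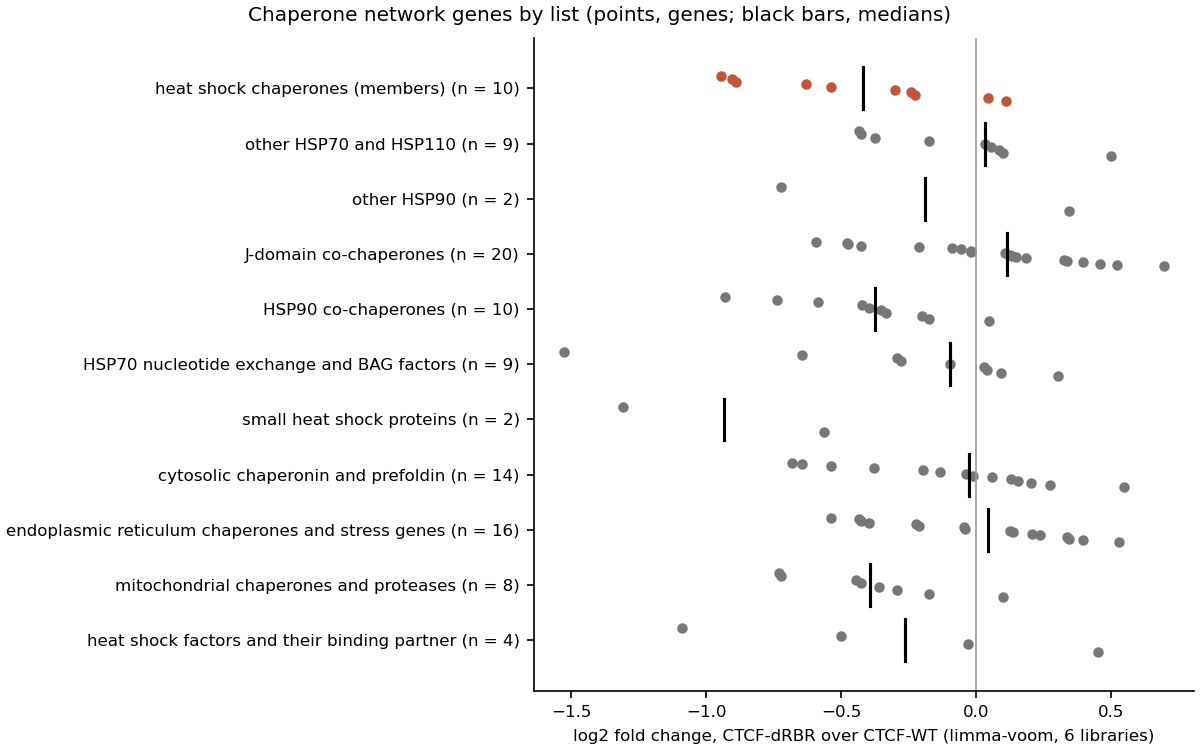
Log2 fold change of CTCF-dRBR over CTCF-WT (horizontal axis, limma-voom on 6 libraries) for the 10 chaperone genes (red) and the tested genes of 10 chaperone network lists (grey), 1 point for each gene and a black bar at each median, with points offset vertically for legibility. On this scale the members' median is −0.42, those of the HSP90 co-chaperones and mitochondrial lists are −0.37 and −0.39, and the endoplasmic reticulum and J-domain lists have medians of 0.04 and 0.12.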

How the data were processed

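Total RNA was extracted with Trizol and libraries were made with a ribosomal RNA depletion kit. Reads are 100 bp single-end per the labels, but the methods describe paired-end sequencing. Per the study's methods, the authors trimmed reads with TrimGalore 0.6.3, aligned them to GRCh37 (hg19) with STAR 2.7.9a and quantified GENCODE genes with RSEM 1.3.1, which divides reads shared by copies. The deposited tables hold RSEM expected counts per gene and TPM per gene, and their names mark them as stranded. Of the table, 92 spike-in rows, all at 0, were left out, and 0 sample columns were unmapped. RSEM scales TPM over all genes including short noncoding RNA, and protein-coding genes held 30.2% to 63.2% of the TPM of a library, a share on which TPM of the other genes depends.

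Groups came from the sample titles. Expected counts entered limma-voom (limma 3.58.1, R 4.3.3) with TMM factors, without rounding and without covariates, and without genes that stayed under 1 CPM throughout. Tests were two-sided, and the threshold was a Benjamini-Hochberg adjusted p of 0.05 across the genes of the fit. Counts were rounded for edgeR 4.0.16 and DESeq2 1.42.0. Single values were compared by exact permutation tests (scipy 1.17.1). Coordinates come from a later GENCODE release on GRCh37, GC content from merged exons of 97.2% of tested genes, and promoter sequence from RefSeq. The scripts were tested on simulated counts. Alternatives covered tests, normalization, filters, library weights, the GC trend, TPM scales, copies, a replicate block and each library left out. A gene at 0 counts in a library is below 0.0564 to 0.0999 CPM (3 counts).

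The members, lists, tests and alternatives were chosen with earlier results of these data known. All 10 members, CTCF, HSF1, HSF2 and the partners in ratios are named, with up to 2 genes of smallest p in each direction from every list, and copies above 1 CPM. Replicate numbers did not pair the libraries. PPID and protein sequences were not analysed here.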

Additional observations from a re-analysis of the deposited data

How the results depend on the processing

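The cause of each change given here was not tested. The count of 0 genes called was the same with edgeR, DESeq2's size factors, library size only, no filter, filterByExpr, the replicate block and TPM rescaled over protein-coding genes, and so were the counts of 0 members and 0 network genes. DESeq2 called 1619 of 14044 genes, 4 of 10 members and 16 of 85 network genes. Library weights called 9583 of 14044 genes, 7 of 10 members and 57 of 85 network genes, with a members' median of −0.51. Removing the GC trend called 1258 of 13654 genes, 5 of 10 members and 13 network genes. On log2(TPM + 1), 782 genes and 1 network gene were called, and on log2(TPM + 0.1), 713 genes and 2 network genes, with 0 members in both, while the members' median was 0.26 in both. That median was −0.35 with library size only, −0.52 with no filter and −0.20 on protein-coding TPM.

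Leaving out each library in turn gave 0 to 535 genes, 0 to 4 members and 0 to 7 network genes called, and members' medians from −0.53 to −0.38. Of these 6 fits, only the one without CTCF-dRBR replicate 1 made calls. All alternatives were chosen with earlier results of these data known, and those added last were both without that library. GC removal called 3139 of 13360 genes, 7 of 10 members and 32 network genes. EdgeR's quasi-likelihood test called 561 of 13735 genes, 4 of 10 members and 7 network genes, with a members' median of −0.53.

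Some single members changed sign, none of them past the threshold. HSPA1A was at −0.035 with no filter, −0.053 with weights, −0.027 in edgeR without CTCF-dRBR replicate 1, −0.48 when summed with HSPA1B, and between −0.027 and 0.12 with single libraries left out. HSPA8 was at −0.0044 with no filter, −0.0067 with weights, −0.065 with GC removal and −0.10 in edgeR, both without CTCF-dRBR replicate 1, and between −0.10 and 0.24 with single libraries left out. On log2(TPM + 1) and log2(TPM + 0.1), HSP90AA1 was at 0.30 in both, HSPH1 at 0.43 and 0.44, DNAJB1 at 0.22 in both and HSPD1 at 0.56 in both, and HSPD1 was at 0.091 on protein-coding TPM. Differences in mean TPM changed sign for HSP90AA1 (−38.2 on protein-coding TPM, −89.6 in CPM), HSPH1 (−62.8 in CPM, −0.793 to 64.1 with single libraries left out), DNAJB1 (−12.2 on protein-coding TPM, −32.8 in CPM, −0.212 to 10.6 with single libraries left out), HSPD1 (−162 in CPM) and HSP90AB1 (−81.7 to 42.4 with single libraries left out). All 6 ratios kept their sign when single libraries were left out or copies were added. The ratios were not computed with the GC trend removed.

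The replicate block called 0 genes, with 1423 at an unadjusted p under 0.05 against 3569 without it, and 0 members. Deviations of same-numbered libraries correlated at −0.341, 0.0993 and −0.471, so the numbers were not treated as pairs. With 3 libraries a group, the exact tests cannot go below 0.1.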

Other observations

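Copies of the members carried few reads. The read-through HSPE1-MOB4 held 1.39% to 9.97% of the reads of HSPE1 and itself, with 5.21, 3.23 and 10.8 CPM in CTCF-WT and 1.95, 13.1 and 9.02 CPM in CTCF-dRBR, so its libraries overlapped while those of HSPE1 did not. Adding its reads to HSPE1 gave a log2 fold change of −0.85. HSP90AB3P, a processed copy of HSP90AB1, had 18.4, 21.4 and 36.6 CPM in CTCF-WT and 30.7, 30.4 and 20.2 CPM in CTCF-dRBR, also overlapping, and all HSP90AB copies together held 1.13% to 3.01% of the reads of HSP90AB1 and its copies. HSPD1P1 had 8.61 to 13.02 CPM, HSPD1P6 0.655 to 2.85 CPM and HSPD1P11 1.43 to 3.81 CPM, and copies of HSPD1 held 1.25% to 1.62%. HSPA8P1 and HSPA8P8 reached 1.81 and 1.74 CPM, and copies of HSPA8 held 0.0987% to 0.211%. How reads shared by a copy and its parent gene were divided is uncertain, and sequence identity between them was not computed.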
